A study of Mus musculus with 16 samples.

Results

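The 5 genes Phox2a, Eya1, Eya2, Eya4 and Six4 encode factors of cranial placode and visceral neuron development and were followed through single vagal sensory neurons. They were chosen by name, and all 5 were among the 27066 genes of the deposited table. The neurons came from vagal ganglia of VGlut2Cre;R26-nGFP mice at postnatal day 4, pooled from 15 animals. In these mice, cells with a history of VGlut2 (Slc17a6) expression carry nuclear GFP, and GFP-positive, DAPI-negative cells were sorted into 16 plates, which all belong to 1 group of the same genotype and age. Libraries were made with CEL-Seq2, which counts unique molecular identifiers (UMIs) near the 3' end of polyadenylated RNA.

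Vagal ganglia join a nodose part, whose neurons arise from an epibranchial placode and supply the viscera, and a jugular part, whose neurons arise from neural crest and resemble somatic sensory neurons. Phox2a is a homeodomain transcription factor of visceral neurons. Six4 is a homeodomain factor that binds DNA, Eya proteins are phosphatases that bind such factors and act as their coactivators, and Dach proteins are co-repressors of the same network. Prdm12 is a regulator of nociceptor development that marks jugular neurons.

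The 16 plates held 74 to 93 cells each, 1392 in all, with 5078592 to 8871398 UMIs per plate and 17714 to 223921 UMIs per cell (median 70666). Cells were ranked by Prdm12 level in CPM, UMI counts scaled to a common total. Of them, 1127 cells with under 20 CPM were called Prdm12-low, 244 cells with at least 100 CPM were called Prdm12-high, and 21 cells between were left out of tests. These are ranges of 1 gene's level and not cell types. Nodose markers (P2rx2, Htr3a, Hoxb4, Hoxb5) summed to 1109.6 to 1483 CPM over plates in Prdm12-low and to 41.6 to 309 CPM in Prdm12-high cells. Of the jugular markers other than Prdm12, which set the classes, Prrxl1 was at 9.55 CPM pooled in Prdm12-low and 406 CPM in Prdm12-high cells, Gfra3 at 4.13 and 215 CPM, and Wnt1 had 3 and 0 UMIs. Of the defining markers of vagal sensory neurons, all 5 had UMIs in both classes. The 8 glial markers summed to 632 to 1465 CPM in Prdm12-low and 291 to 1367 CPM in Prdm12-high cells, and the part of glial RNA in the members' differences was tested only by leaving out wells rich in it. The 4 mural markers summed to 13.7 CPM pooled in Prdm12-low and 101 CPM in Prdm12-high cells (22.7 to 218 CPM over plates, all above those of Prdm12-low cells), mostly from Rgs5 (4.04 and 71.2 CPM pooled) and Pdgfrb (5.80 and 26.7 CPM), with Acta2 under 1 CPM in both. The 4 fibroblast markers summed to 29.0 to 87.2 and 17.1 to 356 CPM, with Dcn at 2.99 and 92.6 CPM pooled but Col1a1 (8.35 and 3.49 CPM) and Col3a1 (46.8 and 22.3 CPM) lower in Prdm12-high cells. The 4 endothelial markers summed to 9.07 to 19.2 and 0 to 8.22 CPM, 7 skeletal muscle markers to 11.7 to 23.1 and 4.12 to 18.1 CPM, 4 immune markers to 0.400 to 4.54 and 0 to 6.08 CPM, and 4 markers of dividing cells to 11.2 to 78.6 and 1.81 to 167 CPM. The part of these markers in the differences between the Prdm12 classes was not tested. The 96 well barcodes recur in each plate by construction, and no 2 cells held identical counts.

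The members lie on 5 chromosomes (GENCODE M21, GRCm38, the build called mm10 in the submitters' processing notes). Phox2a is at chr7:101818313-101822726 on the plus strand, Eya1 at chr1:14168954-14310235 on the minus strand, Eya2 at chr2:165595032-165771727 on the plus strand, Eya4 at chr10:23102963-23350786 on the minus strand and Six4 at chr12:73099609-73113456 on the minus strand. The promoters of Phox2a and Six4 are shown because these 2 members had opposite patterns over the Prdm12 classes. The letters are the bases upstream of the annotated start (RefSeq, GRCm38.p6, read on the gene's strand), 250 bases at chr7:101818063-101818312 for Phox2a and 219 bases at chr12:73113457-73113675 for Six4.
Phox2a: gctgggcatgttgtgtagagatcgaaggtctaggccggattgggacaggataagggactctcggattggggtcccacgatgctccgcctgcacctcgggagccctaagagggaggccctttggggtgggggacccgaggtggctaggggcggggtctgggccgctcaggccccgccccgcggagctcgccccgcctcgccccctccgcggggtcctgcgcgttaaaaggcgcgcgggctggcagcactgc
Six4: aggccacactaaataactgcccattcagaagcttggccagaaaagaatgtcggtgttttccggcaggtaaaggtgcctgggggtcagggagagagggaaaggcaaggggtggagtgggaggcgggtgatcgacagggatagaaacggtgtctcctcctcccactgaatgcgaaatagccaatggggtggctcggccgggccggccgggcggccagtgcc
No letters are in capitals, because a search of both strands for TAAT (the core of homeodomain sites), CANNTG (the E-box) and TCAGGTT (the core of the MEF3 site bound by Six4) found 0 matches in either window. Of 27025 RefSeq promoters cut to 250 bases, 55.3% held TAAT, 66.0% held CANNTG and 3.5% held TCAGGTT. The GC content was 70.4% for the Phox2a window and 60.3% for the Six4 window.

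Phox2a, Eya1, Eya2 and Eya4 were far more abundant in Prdm12-low than in Prdm12-high neurons, whereas Six4 was present in both and slightly lower in Prdm12-low neurons. Summed per plate and class, 4 of the 5 members passed the filter on low counts. Of these, edgeR's quasi-likelihood test called 3 higher and 1 lower in Prdm12-low cells (Benjamini-Hochberg adjusted p under 0.05). Phox2a and Eya4 had 21 and 5 UMIs in all Prdm12-high cells. They passed the filter through their Prdm12-low sums, so a call of lower was hardly open to them and the count of 3 partly follows from the filter. The same test called 58.3% of all 12095 genes tested, 29.0% higher and 29.4% lower, so a call by itself does not set a gene apart here and the size of the difference matters more. The median log2 difference over all genes tested was 0.00. How many of all genes tested had plates without overlap, here or between the subtype classes below, was not counted.

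Phox2a had 15.7, 32.9 and 50.9 CPM in the lowest, median and highest plate of Prdm12-low cells, and 0, 0 and 4.30 CPM in Prdm12-high cells. The lowest Prdm12-low plate was plate 9 and the highest plate C, the classes did not overlap, and 9 plates had no Phox2a UMI in their Prdm12-high cells. The means were 33.9 ± 8.68 and 1.08 ± 1.59 CPM (SD, n = 16 plates), a log2 difference of 4.71 ± 0.28 (SE, adjusted p = 2.83e-12). Phox2a shares 95 exon bases with Inppl1 on the opposite strand, and Inppl1 itself had 9.49 ± 2.31 and 2.40 ± 1.64 CPM in the 2 classes; whether counting used strand is not given in the sources used here, so UMIs from those bases cannot be told apart.

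Eya1, the Eya gene with most UMIs here, had 105, 129 and 177 CPM in the lowest, median and highest plate of Prdm12-low cells and 1.06, 5.34 and 24.6 CPM in Prdm12-high cells. The classes were apart in all 16 plates, with plate 8 the lowest and plate 2 the highest among Prdm12-low cells. The means were 133 ± 19.8 and 8.86 ± 7.63 CPM (SD, n = 16), a log2 difference of 3.89 ± 0.25 (SE, adjusted p = 4.76e-10).

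Eya4, known also as a deafness gene, had 2.15, 5.15 and 10.9 CPM in Prdm12-low cells and 0, 0 and 1.74 CPM in Prdm12-high cells by plate. No plate of one class reached the other class, and 12 plates had no Eya4 UMI in Prdm12-high cells. The log2 difference was 4.02 ± 0.41 (SE, n = 16, adjusted p = 4.93e-09). Eya2 had 1.75, 4.49 and 7.18 against 0, 0 and 2.51 CPM. Its Prdm12-low level was the higher one within each of the 16 plates, although the ranges of the classes overlapped. Eya2 had 399 UMIs in the whole table and did not pass the filter on low counts; in the fit without that filter its log2 difference was 3.24 ± 0.40 (adjusted p = 1.11e-08 over 27021 genes).

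Six4 had 20.1, 24.0 and 30.3 CPM in the lowest, median and highest plate of Prdm12-low cells and 22.6, 30.8 and 35.1 CPM in Prdm12-high cells. The ranges overlapped, and Prdm12-low was the higher class in 1 of 16 plates. The means were 24.0 ± 2.98 and 30.0 ± 3.77 CPM (SD, n = 16), a log2 difference of -0.38 ± 0.07 (adjusted p = 3.43e-05). With each cell thinned to 17000 UMIs the difference was -0.13 and was not called (adjusted p = 0.604).

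**Figure D1:**
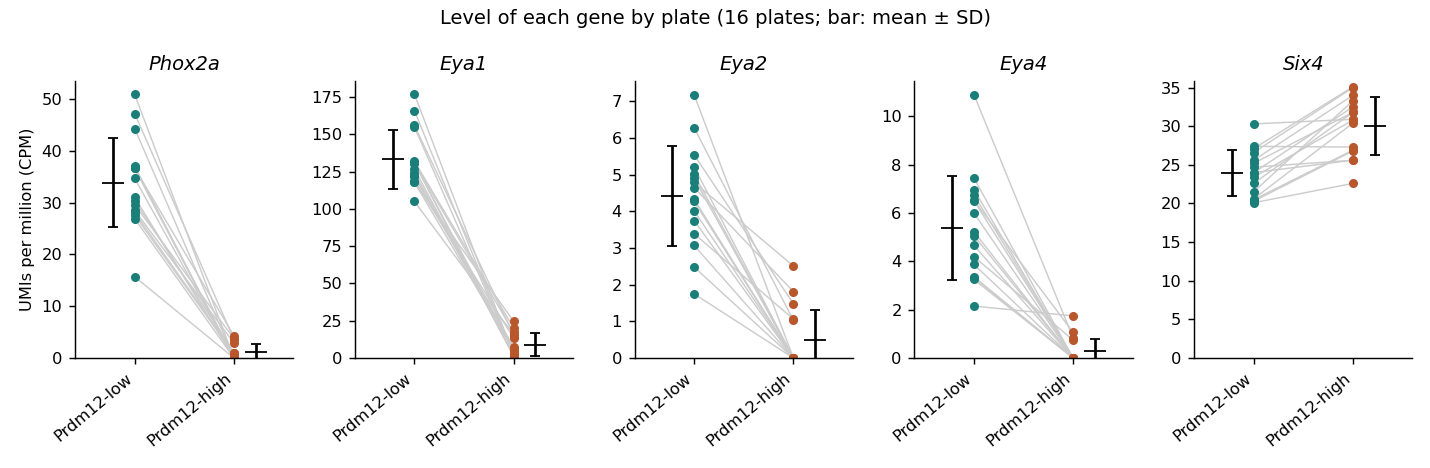
Level of each member in CPM (vertical axis, starting at 0) in Prdm12-low and Prdm12-high cells; each point is 1 of 16 plates, grey lines join the classes of a plate, and bars give mean ± SD. Phox2a, Eya1 and Eya4 do not overlap between the classes, Eya2 overlaps but falls within each plate, and Six4 is higher in Prdm12-high cells in 15 of 16 plates. The share of all genes tested without overlap was not counted.

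The differences of Phox2a and Eya1 were larger in some alternative settings, not only in those that left out wells. With wells above 2 times their plate's median UMIs left out, which kept 1085 Prdm12-low and 239 Prdm12-high cells, the log2 difference was 6.18 for Phox2a (adjusted p = 1.16e-16) and 4.51 for Eya1 (adjusted p = 7.85e-12), and Six4 stayed at -0.37. With wells of 500 CPM or more of glial markers left out it was 6.71 for Phox2a (adjusted p = 1.07e-16) and 4.92 for Eya1 (adjusted p = 4.11e-15). Over 11 alternative settings the range was 4.67 to 6.71 for Phox2a and 3.79 to 4.92 for Eya1, with both called higher in each. Whether each well held 1 cell was not tested.

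Over the finer rank of Prdm12, cells with few Prdm12 UMIs were near the cells with none. In 76 Prdm12-low cells with at least 1 Prdm12 UMI (4.54 to 19.0 CPM), Phox2a was at 32.2 CPM and Eya1 at 127 CPM, next to 33.7 and 134 CPM in the 1051 cells with none. The 21 cells between the classes had a median of 42213 UMIs, and 20 of them held an Eya1 UMI. Their Eya1 level was 103 CPM (Poisson 95% interval 85.7 to 123), nearer to the Prdm12-low level. In a shallow cell 1 Prdm12 UMI is enough to pass 20 CPM, as at 48944 UMIs (20.4 CPM) and at 21153 UMIs (47.3 CPM). Other cells of this bin were deeper, up to 181716 UMIs (27.5 CPM). The bin thus depends on depth as well as on Prdm12 and is no measure of an intermediate Prdm12 level. In 4 equal bins of Prdm12-high cells from the lowest to the highest Prdm12, Eya1 was at 20.9, 7.80, 3.84 and 3.63 CPM and Phox2a at 3.49, 1.30, 0.226 and 0 CPM. The lowest bin had the most of both genes, and the highest bin had 0 Phox2a UMIs, which allows up to 0.956 CPM by the exact Poisson limit. Six4 was at 31.9, 26.9, 28.0 and 36.3 CPM in the same bins, with no such order. Intervals cover counting error only.

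**Figure D2:**
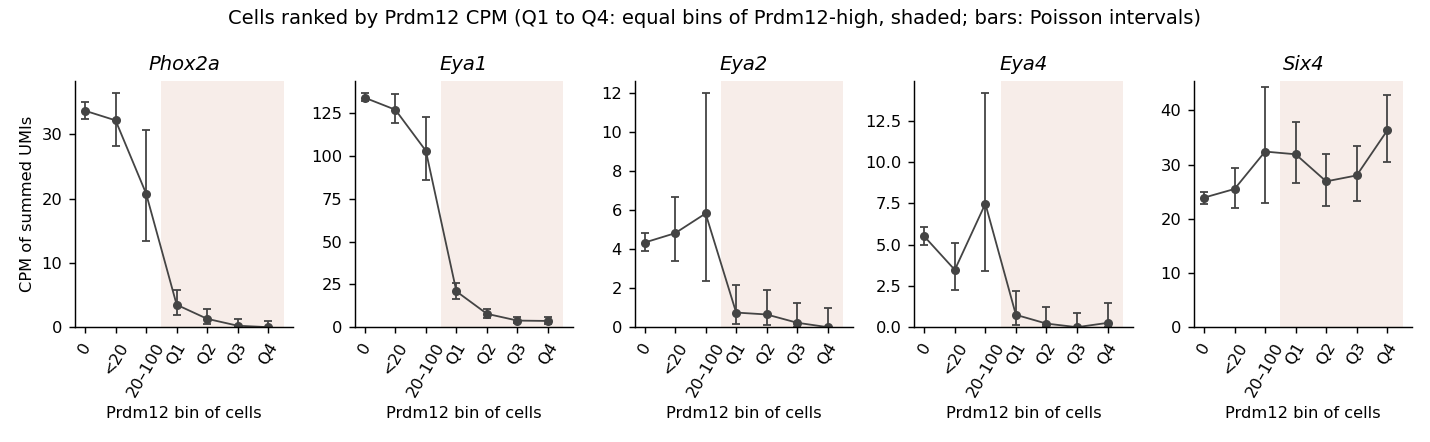
Pooled level of each member in CPM (vertical axis) in cells binned by Prdm12 level: no Prdm12 UMI, under 20 CPM, 20 to 100 CPM, and 4 equal bins of Prdm12-high cells (shaded); bars are Poisson 95% intervals. Phox2a, Eya1, Eya2 and Eya4 are low in all 4 shaded bins, and Six4 lies between 23.9 and 36.3 CPM in every bin.

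The share of cells with a UMI gave the same division. Of Prdm12-low cells, 51.2% held a Phox2a UMI, 95.2% an Eya1 UMI, 18.8% an Eya2 UMI and 21.8% an Eya4 UMI, at a median of 71859 UMIs per cell. Of Prdm12-high cells the shares were 3.28%, 23.0%, 2.46% and 1.64%, at a median of 62923 UMIs. Thinned to 17000 UMIs per cell, they were 32.2%, 78.4%, 6.57% and 8.70% in Prdm12-low and 0.410%, 7.79%, 2.05% and 1.23% in Prdm12-high cells. Six4 UMIs were found in 75.9% of Prdm12-low and 75.4% of Prdm12-high cells, and in 30.5% and 31.6% after thinning. No cell was left out by the thinning, since the shallowest had 17714 UMIs.

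The column headers name 2 runs of 8 plates each. Pooled Prdm12-low levels in run 1 and run 2 were 31.7 and 35.1 CPM for Phox2a, 142 and 126 CPM for Eya1, and 24.4 and 23.7 CPM for Six4. The log2 difference between the Prdm12 classes was 4.67 and 4.77 for Phox2a, 3.79 and 4.06 for Eya1 and -0.33 and -0.42 for Six4 within the runs. The interaction of run and class was 0.09 ± 0.93, 0.27 ± 0.68 and -0.10 ± 0.14 for these genes (adjusted p = 1.000 for each), and 0 genes of all tested were called for a difference between runs.

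Among partners of the members, Dach1 was higher in Prdm12-low cells and Eya3 slightly lower. Eya3 was at 34.2 ± 3.38 CPM in Prdm12-low and 38.1 ± 7.72 CPM in Prdm12-high cells (log2 difference -0.20 ± 0.08, adjusted p = 0.0441). Its ranges overlapped (29.6 to 40.7 and 24.7 to 48.9 CPM), and Prdm12-low was the higher class in 6 of 16 plates. Dach1 was at 9.75 ± 2.30 and 2.80 ± 2.76 CPM (1.77 ± 0.30, adjusted p = 1.69e-05). Within the Eya family, Eya1, Eya2 and Eya4 were lower in Prdm12-high cells in all 16 plates, while Eya3 differed little between the classes. Of 8 listed partners of the members, 3 passed the filter, with 1 higher (Dach1) and 2 lower (Eya3 and Sobp, at -0.22 ± 0.06, adjusted p = 0.00525). The median log2 difference of these 3 tested genes was -0.20. Dach2 did not pass the filter, at 4.10 ± 1.78 CPM in Prdm12-low and 0.226 ± 0.407 CPM in Prdm12-high cells. Nor did Six5, at 1.53 ± 0.573 and 0.920 ± 1.27 CPM. Six2, Six3 and Six6 had 9, 1 and 4 UMIs in all.

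Lists of related factors were counted in the same comparison. Of 13 visceral and autonomic factors, 6 were tested, 4 higher and 1 lower, with a median log2 difference of 1.99. Among them were the nicotinic receptor subunit genes Chrna3 at 3.74 ± 0.18 (adjusted p = 2.18e-12) and Chrnb4 at 3.63 ± 0.24, which also passed, and, lower, the GDNF receptor gene Ret at -0.93 ± 0.08 (adjusted p = 1.10e-08). Of 13 somatic sensory factors, 9 were tested, 0 higher and 8 lower, with a median of -3.81. The transcription factor genes Pou4f2 (-6.94 ± 0.29, adjusted p = 4.34e-16) and Prdm8 (-5.96 ± 0.11, adjusted p = 1.53e-23) led. Not all of the list was lower, since 2 genes that did not pass the filter went the other way. Runx3 was at 7.44 ± 5.21 CPM in Prdm12-low and 0.0762 ± 0.214 CPM in Prdm12-high cells, and Shox2 at 4.89 ± 3.19 and 2.39 ± 2.00 CPM. Neurog1 had 1 UMI in all. Of 30 placode and neurogenesis factors, 13 were tested, 4 higher and 6 lower, with a median of -0.17. The genes past the test with the largest differences were Tbx3 (3.14 ± 0.15) and Etv1 (3.13 ± 0.28) among the higher ones, and Tshz2 (-1.87 ± 0.04) and Sox11 (-1.55 ± 0.08) among the lower ones, with adjusted p of 8.26e-12, 5.68e-08, 2.03e-23 and 2.64e-13. The transcription factor gene Hand2 of sympathetic neurons had 191 UMIs in Prdm12-low and 0 in Prdm12-high cells. Hand2 was at 0 CPM in 7 plates of Prdm12-low cells and reached 11.5 CPM in plate 5. The 6 sympathetic or chromaffin markers, Hand2 among them, summed to 522 to 720.1 CPM in Prdm12-low and 266 to 449 CPM in Prdm12-high plates, mostly from Th and Chga. Their part in the members' levels was not tested.

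Among Prdm12-low cells, classes high in a subtype gene were defined from each gene's own level: at least 0.25 of the mean of its 20 highest cells and at least 3 UMIs, against all other Prdm12-low cells. The 7 genes are Prox2 (a homeobox factor), P2ry1 (a purinergic receptor), Vip and Sst (neuropeptides), Cckbr (a receptor for cholecystokinin and gastrin), Eln (elastin) and Bmp3 (a secreted growth factor). These classes are ranges too: between 0.8 and 1.2 times the limit lay 7 cells below and 13 above for Prox2, 16 and 15 for P2ry1, and 66 and 40 for Eln. A cell may belong to several classes, and all comparisons reuse the same Prdm12-low cells as controls. Their values are thus given side by side. Glial sums are given below as medians over cells, while the tests use UMIs summed per plate. Pooled, the 8 glial markers summed to 1089 CPM in Prox2-high, 1048 in P2ry1-high, 977 in Vip-high and 1088 in Cckbr-high cells. They summed to 1033 CPM in Eln-high, 949.5 in Bmp3-high and 1076 in all Prdm12-low cells. The medians thus do not describe the sums tested.

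Prox2-high neurons had more Phox2a, Eya1 and Eya4 than other Prdm12-low neurons. In 173 cells of 16 plates, 3 of the 5 members were called, all higher, where 42.9% of all genes tested were called. Eya4 was at 7.64, 21.4 and 27.7 CPM in the lowest, median and highest plate, against 1.19, 2.56 and 7.11 CPM in the other cells. No plate overlapped, and the log2 difference was 2.77 ± 0.19 (adjusted p = 1.98e-13). Eya4 passed the filter on low counts mainly through the Prox2-high sums. A call of lower was thus hardly open to it, and the count of 3 partly follows from the filter. In the fit without that filter its log2 difference was 2.72 (adjusted p = 3.86e-17). Phox2a was at 35.5, 71.5 and 95.1 against 11.3, 26.4 and 40.9 CPM. The ranges overlapped, but it was higher in the Prox2-high cells of all 16 plates, with a log2 difference of 1.43 ± 0.11 (adjusted p = 1.34e-10), and 90.8% of the cells held a Phox2a UMI. Eya1 was at 181 ± 24.8 and 124 ± 21.9 CPM (0.58 ± 0.06, adjusted p = 1.12e-09). Dach1 was called higher as well (1.79 ± 0.15, adjusted p = 1.30e-11). Eya2 (-0.46 ± 0.35) and Six4 (0.19 ± 0.11) were not called. The glial sum per cell had a median of 222 CPM in Prox2-high and 788 CPM in the other cells; with glia-rich wells left out (500 CPM or more), Phox2a (1.34), Eya1 (0.58) and Eya4 (2.62) were still called higher.

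P2ry1-high neurons had more Phox2a and Six4 than other Prdm12-low neurons. In 120 cells of 16 plates, 4 of the 5 members were called, 2 higher and 2 lower, where 35.0% of all genes tested were called. Phox2a was at 38.3, 129 and 221 CPM in the lowest, median and highest plate, against 13.1, 23.6 and 43.6 CPM in the other cells. The ranges overlapped, but every plate had more in P2ry1-high cells (log2 difference 2.27 ± 0.16, adjusted p = 1.82e-09). Six4 was at 20.2, 39.2 and 46.5 against 18.0, 21.9 and 30.7 CPM. The ranges overlapped, and it was higher in 15 of 16 plates (0.77 ± 0.10, adjusted p = 1.54e-06). Eya1 (-0.24 ± 0.08, adjusted p = 0.0256) and Eya4 (-0.98 ± 0.37, adjusted p = 0.0406) were lower. Eya1 lost its call in 5 and Eya4 in 2 of the alternative settings. Eya4 was at 2.99 ± 4.45 CPM in P2ry1-high and 5.68 ± 2.26 CPM in the other cells. It passed the filter on low counts mainly through the other cells' sums, so its call partly follows from the filter. Eya2 was not called (0.73 ± 0.41). The glial sum per cell had a median of 214 CPM in P2ry1-high and 694 CPM in the other cells; with glia-rich wells left out, Phox2a (adjusted p = 2.78e-05) and Six4 (0.83, adjusted p = 0.000284) were still called higher, Eya1 was not called (-0.18, adjusted p = 0.292) and Eya4 did not pass the filter. Of Prdm12-high cells, 40 also passed the P2ry1 limit, and there Phox2a was at 1.77 CPM and Six4 at 30.0 CPM.

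Eln-high neurons had less Phox2a, Eya1, Eya4 and Six4 than other Prdm12-low neurons. In 283 cells of 16 plates, 4 of the 5 members were called, all lower, where 34.4% of all genes tested were called. Eya1 was at 49.9, 89.0 and 112 CPM in the lowest, median and highest plate, against 123, 139 and 213 CPM in other cells. No plate overlapped (log2 difference -0.74 ± 0.05, adjusted p = 3.44e-11). Phox2a was at 2.17, 8.41 and 40.5 against 19.9, 42.8 and 53.2 CPM. The ranges overlapped, but the Eln-high level was the lower one in all 16 plates (-1.94 ± 0.22, adjusted p = 2.80e-06). Eya4 was at 1.07 ± 1.08 and 6.70 ± 2.73 CPM (-2.33 ± 0.31, adjusted p = 6.98e-07), and Six4 at 19.3 ± 3.77 and 25.6 ± 3.52 CPM (-0.38 ± 0.08, adjusted p = 0.000260), both lower in all 16 plates. Eya4 passed the filter on low counts mainly through the other cells' sums, so the count of 4 partly follows from it. Eya2 was not called (0.39 ± 0.33). The Six4 call was lost in 3 alternatives, among them the strict limit for Eln (-0.08, adjusted p = 0.727). The glial sum per cell had a median of 879 CPM in Eln-high and 482 CPM in the other cells, and with wells of 500 CPM or more of glial markers left out Phox2a (-2.41), Eya1 (-0.98) and Six4 (-0.44) were still called lower, while Eya4 did not pass the filter on low counts.

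Vip-high neurons had little Phox2a and less Six4. Of 73 cells, 67 lay in the 12 plates tested, and 3 of the 5 members were called, 1 higher and 2 lower, where 23.8% of all genes tested were called. Phox2a was at 0, 3.26 and 59.8 CPM in the lowest, median and highest plate, against 16.1, 35.8 and 58.3 CPM in other cells. In 1 of the 12 plates the Vip-high level was the higher one (log2 difference -2.54 ± 0.44, adjusted p = 0.00105), and with the strict limit for Vip the call was lost (-2.59, adjusted p = 0.0540). Six4 was at 15.3 ± 4.71 and 23.9 ± 2.64 CPM, lower in all 12 plates (-0.65 ± 0.15, adjusted p = 0.00127). Eya1 was at 155 ± 41.2 and 122 ± 13.0 CPM (0.38 ± 0.12, adjusted p = 0.0277), a call lost in 3 alternatives. Eya2 (-0.27 ± 0.32) and Eya4 (-0.84 ± 0.44) were not called. Vip-high cells were also deeper, with a median of 97460 UMIs against 70785, and with thinning Six4 was not called (-0.51, adjusted p = 0.480). The Six4 call was also lost in run 1 alone (-0.65, adjusted p = 0.351) and with the strict Vip limit (-0.62, adjusted p = 0.0636). The glial sum per cell had a median of 359 CPM in Vip-high and 651 CPM in the other cells; with glia-rich wells left out, Phox2a (-3.19), Six4 (-0.92) and Eya1 (0.67) were called in the same directions.

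Cckbr-high and Bmp3-high neurons had more Eya1. In 102 Cckbr-high cells of 15 plates, 1 of the 5 members was called, where 24.1% of all genes tested were called. Eya1 was at 140.5, 206 and 271 CPM in the lowest, median and highest plate, against 100.2, 120.3 and 169.6 CPM. The ranges overlapped, but it was the higher one in all 15 plates (log2 difference 0.74 ± 0.05, adjusted p = 3.89e-13). Phox2a (-0.36 ± 0.17), Eya4 (-0.56 ± 0.36) and Six4 (-0.10 ± 0.13) were not called there, and Eya2 did not pass the filter on low counts. Phox2a was called lower in run 2 alone (-0.66, adjusted p = 0.0174) and with a looser Cckbr limit (-0.57, adjusted p = 0.00405). The glial sum per cell had a median of 250.4 CPM in Cckbr-high and 706 CPM in the other cells, and with glia-rich wells left out Eya1 was still called higher (0.72). In 58 Bmp3-high cells of 12 plates, 2 of the 5 members were called, both higher, where 8.27% of all genes tested were called. Eya1 was at 113, 180.1 and 261 against 112, 129 and 171 CPM, higher in 11 of 12 plates (0.45 ± 0.07, adjusted p = 0.000149). Eya4 was at 0, 12.2 and 36.8 against 2.40, 5.45 and 8.83 CPM, also higher in 11 of 12 (1.48 ± 0.32, adjusted p = 0.00402). Both Bmp3 calls were lost in some alternative settings: Eya1 differed by 0.12 (adjusted p = 0.771) with glia-rich wells left out and by -0.09 (adjusted p = 0.571) with a looser Bmp3 limit, and Eya4 by 0.52 (adjusted p = 0.845) in run 2 alone and by 0.74 (adjusted p = 0.160) with the looser limit. In run 2 alone Eya1 differed by 0.36 (adjusted p = 0.161). Phox2a (-0.08 ± 0.47) and Six4 (-0.51 ± 0.22) were not called in Bmp3-high cells, although Six4 was called lower with the looser limit (-0.74, adjusted p = 0.000127), and Eya2 did not pass the filter. The glial sum per cell had a median of 164 CPM in Bmp3-high and 723 CPM in the other cells. The 6 sympathetic or chromaffin markers summed to 358 to 1954 CPM over plates in Bmp3-high cells. Pooled, Dbh was at 43.7 CPM there and at 10.4 CPM in all Prdm12-low cells, the noradrenaline transporter gene Slc6a2 at 49.9 and 11.0 CPM, and Hand2 at 14.5 and 2.17 CPM, while Th (223 and 216 CPM) and Chga (352 and 358 CPM) were close. Their part in the Eya1 and Eya4 values was not tested.

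Sst-high neurons were few, 24 cells of which 13 were also Eln-high, and only 2 plates held 3 or more. Pooled, Phox2a had 3 UMIs there (1.40 CPM, Poisson 95% interval 0.289 to 4.10) against 34.3 CPM in other Prdm12-low cells, and Eya1 had 85 UMIs (39.7 CPM, 31.7 to 49.1) against 136 CPM. On the 2 plates, 1 of the 5 members was called lower, Eya1 (-1.47 ± 0.27, adjusted p = 0.000341), where 4.92% of all genes tested were called. These plates held 7 Sst-high cells. DESeq2 on the same plates did not call Eya1 (-1.45, adjusted p = 0.0954), and with thinning Eya1 differed by -2.67 (adjusted p = 0.00789). Phox2a was not called there (-2.24 ± 0.73, adjusted p = 0.0720), but was called lower without the filter on low counts (-2.28, adjusted p = 0.0439), with 1 Prdm12 limit (-2.22, adjusted p = 0.0352) and with a looser Sst limit (-2.01, adjusted p = 0.000270). With all 14 plates that held at least 1 such cell, an alternative added after seeing the data, 2 members were called lower, where 19.7% of all genes were called: Phox2a at -4.61 ± 0.47 (adjusted p = 3.60e-11) and Eya1 at -1.82 ± 0.17 (adjusted p = 1.34e-10). Six4 was at 20.6 CPM pooled (14.9 to 27.6) and was not called in either fit. Eya2 and Eya4 had 2 UMIs and 1 UMI in the 24 cells.

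**Figure D3:**
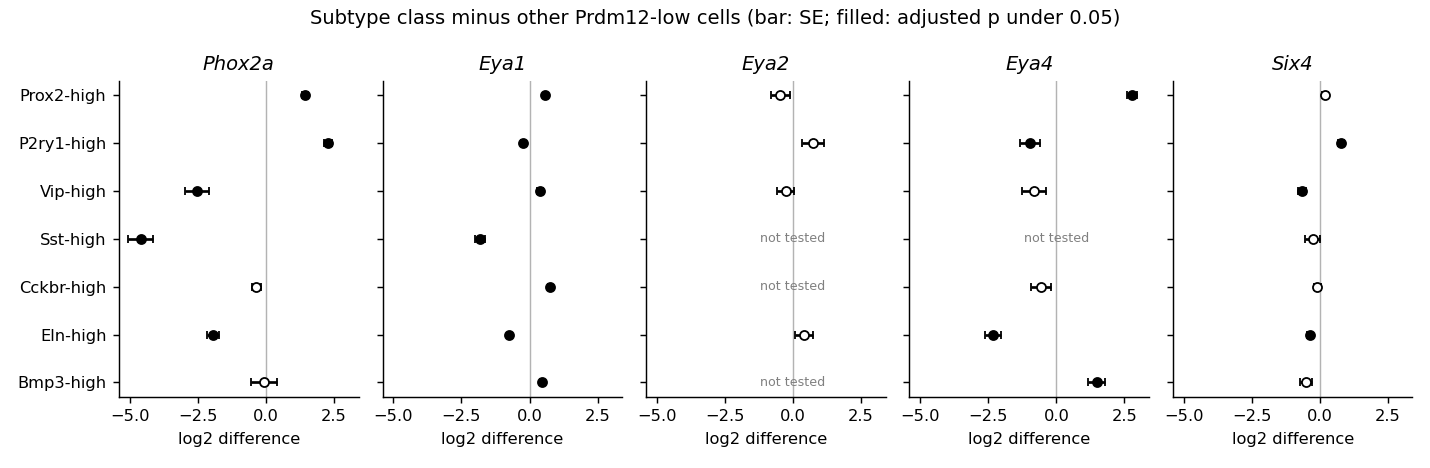
Log2 difference of each member (horizontal axis) between cells high in a subtype gene and the other Prdm12-low cells, with SE bars; filled points passed at adjusted p under 0.05. Sst-high is drawn from the fit over 14 plates, the others from the fits described in the text. Phox2a spans from -4.61 to 2.27, while Six4 stays between -0.65 and 0.77.

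The order of levels was set out over 9 classes without shared cells: Prdm12-high, cells high in exactly 1 of the 7 genes, and 373 Prdm12-low cells high in none. Neighbours in the order were compared within plates by an exact two-sided sign-flip permutation test, adjusted over 35 pairs, of which 6 passed; the 5 Sst-high cells were too few to enter. For Phox2a the order was P2ry1-high (131 ± 62.6 CPM, SD, n = 14 plates), Prox2-high (72.7 ± 15.6, n = 16), Cckbr-high (28.0 ± 13.3, n = 15), Bmp3-high (23.4 ± 36.0, n = 6), none (19.7 ± 9.89, n = 16), Eln-high (9.05 ± 9.14, n = 16), Vip-high (5.18 ± 7.70, n = 9) and Prdm12-high (1.08 ± 1.59, n = 16). P2ry1-high exceeded Prox2-high in 12 of 14 plates (exact permutation test, adjusted p = 0.0150), Prox2-high exceeded Cckbr-high in 15 of 15 (exact permutation test, adjusted p = 0.000712), and cells high in none exceeded Eln-high in 14 of 16 (exact permutation test, adjusted p = 0.0145). The other neighbour pairs of Phox2a did not pass, Vip-high and Prdm12-high among them (exact permutation test, adjusted p = 0.474). This does not make their levels equal. Pooled, Phox2a was at 3.82 CPM (Poisson 95% interval 2.33 to 5.90) in Vip-high and 1.24 CPM (0.769 to 1.90) in Prdm12-high cells. Bmp3-high shared 5 plates with Cckbr-high and 6 with cells high in none. There the smallest p the exact permutation test allows is 0.0625 and 0.0312 before adjustment.

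For Eya1 the order was Bmp3-high (216 ± 43.2 CPM), Cckbr-high (200.4 ± 28.5), Prox2-high (184 ± 23.9), Vip-high (158 ± 30.2), P2ry1-high (129 ± 36.4), none (123 ± 34.6), Eln-high (88.2 ± 19.6) and Prdm12-high (8.86 ± 7.63). Only the last 2 steps passed, each in 16 of 16 plates (exact permutation test, adjusted p = 0.000534 for both). The higher steps did not pass and rest on fewer plates: Vip-high exceeded P2ry1-high by 32.9 CPM on average and in 7 of 8 plates (exact permutation test, adjusted p = 0.296), and Bmp3-high and Cckbr-high shared 5 plates, where the test could not pass. Eya4 had its highest levels in Prox2-high (20.6 ± 5.27 CPM) and Bmp3-high cells (19.8 ± 9.27), then Cckbr-high (4.96 ± 5.06), none (2.89 ± 1.95), P2ry1-high (2.87 ± 4.37), Vip-high (0.851 ± 1.76), Eln-high (0.430 ± 0.612) and Prdm12-high (0.273 ± 0.528). No neighbouring pair of Eya4 passed; Bmp3-high exceeded Cckbr-high in all 5 shared plates, where the smallest p the exact permutation test allows is 0.0625. Six4 was highest in P2ry1-high cells (40.7 ± 9.95 CPM), which exceeded Prdm12-high cells (30.0 ± 3.77) in 11 of 14 plates (exact permutation test, adjusted p = 0.00854), and no later step passed down to Vip-high cells (14.6 ± 4.59). Among the Prdm12-low classes tested, Eya2 lay between 2.52 ± 2.82 CPM in Prox2-high and 6.41 ± 5.25 CPM in P2ry1-high cells. No step of Eya2 passed. Its steps from P2ry1-high to Bmp3-high and on to Vip-high rest on 5 and 2 shared plates, where the test could not pass. In the 5 Sst-high cells Eya2 had 0 UMIs.

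**Figure D4:**
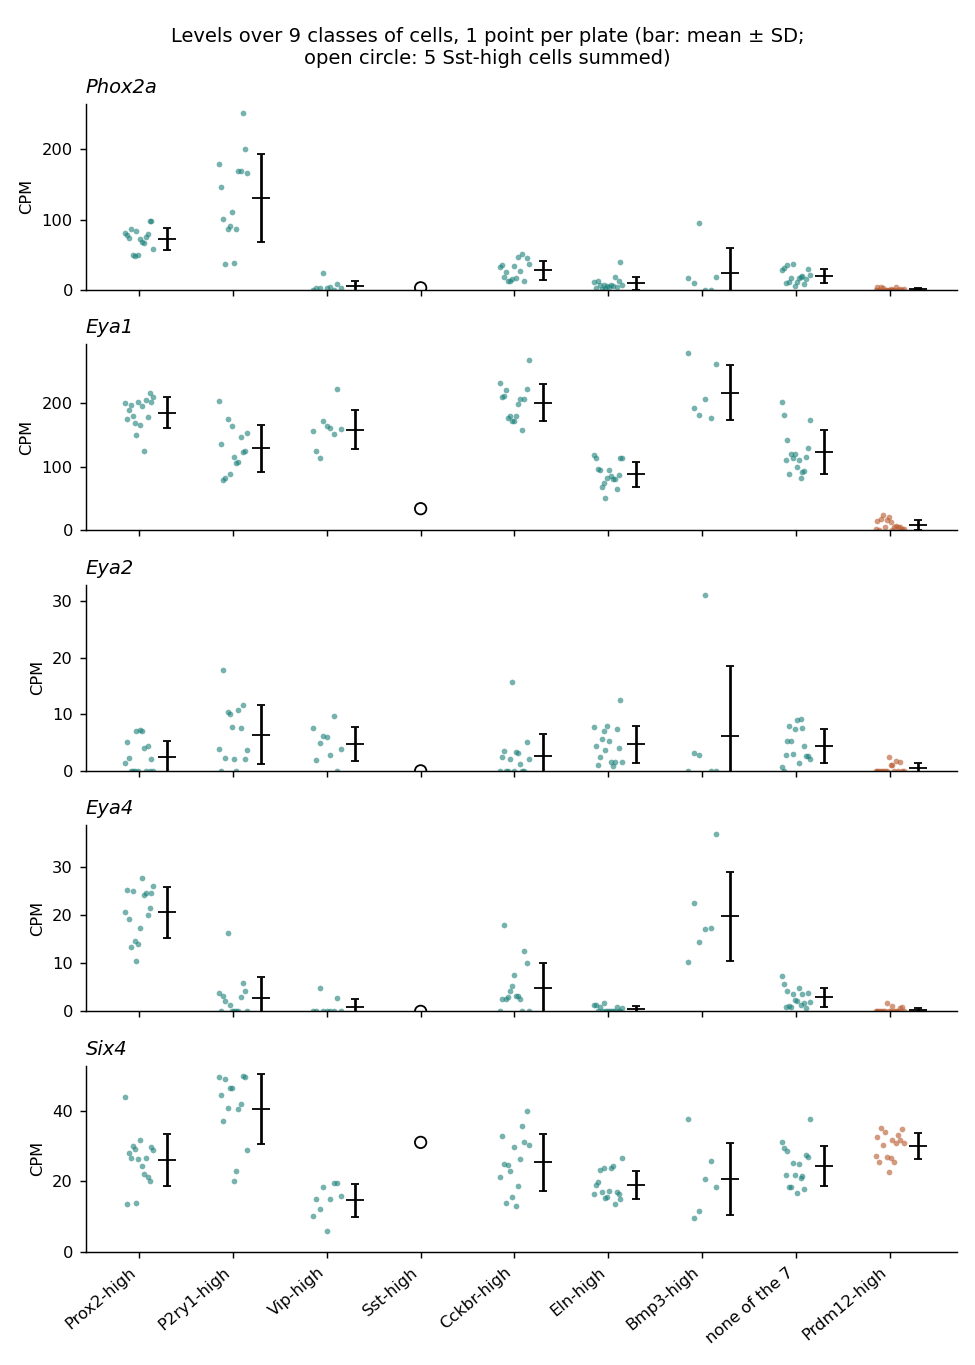
Level of each member in CPM (vertical axis) over the 9 classes without shared cells; each point is 1 plate with at least 3 cells of the class, bars are mean ± SD and are cut at 0, and the open circle is the sum of the 5 Sst-high cells. Phox2a peaks in P2ry1-high and Prox2-high cells, Eya4 in Prox2-high and Bmp3-high cells, and Six4 is found in all classes.

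Within single Prdm12-low cells, the members were only loosely coupled. Over 1127 cells, Pearson's r of log2(CPM + 10) was 0.30 for Phox2a with Eya1 and 0.21 for Phox2a with Eya4, 0.25 for Eya1 with Eya4, and -0.28 for Eya1 with Eya2. After thinning the same pairs gave 0.17, 0.15, 0.12 and -0.11. Within the 173 Prox2-high cells, these pairs gave -0.01, -0.14, -0.01 and -0.37, and within the 120 P2ry1-high cells 0.35, 0.02, 0.13 and 0.04. The pooled values did not hold for every pair within these classes. Within the 283 Eln-high cells the pairs gave 0.30, 0.24, 0.22 and -0.16, nearer to the pooled values. Over the 244 Prdm12-high cells they gave 0.41, -0.02, 0.10 and -0.03. Cells of all these groups share plates and library depth, and weak correlations in sparse counts are given as a description only. Over all Prdm12-low cells, Dach1 gave 0.33 with Phox2a and 0.29 with Eya4.

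The Eya genes differed from each other along Eya1's own level. In 4 equal bins of Prdm12-low cells from the lowest to the highest Eya1, Eya2 was at 8.66, 3.99, 2.29 and 1.68 CPM, and Eya4 at 1.04, 4.45, 6.22 and 10.6 CPM. The 2 genes thus ran in opposite directions. In the 54 cells with no Eya1 UMI, which had a median of 84932 UMIs, Eya2 was at 11.2 CPM. The median glial sum was 872, 1107, 762 and 105 CPM over these bins, the median depth fell from 82707 to 66621 UMIs, and the number of Eln-high cells fell from 127 to 31; their part in these orders was not tested. Eya genes shared at most 29 bases in a row within the last 500 bases of their transcripts (Eya2 with Eya3) and 19 for Eya1 with Eya2; the read length is not given in the sources used here.

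**Figure D5:**
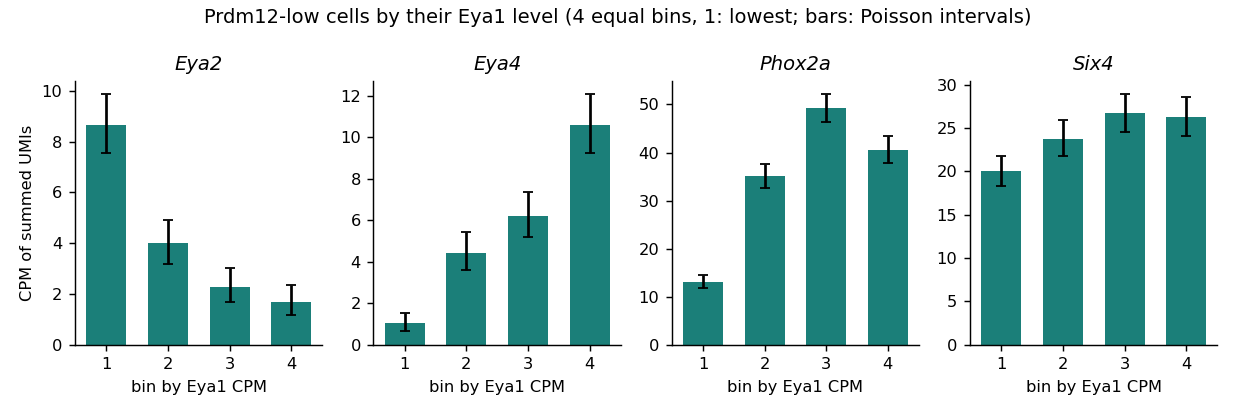
Pooled level in CPM (vertical axis, starting at 0) of Eya2, Eya4, Phox2a and Six4 in 4 equal bins of Prdm12-low cells by Eya1 level, from lowest (1) to highest (4); bars are Poisson 95% intervals. Eya2 falls from 8.66 to 1.68 CPM and Eya4 rises from 1.04 to 10.6 CPM.

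The genes most alike each member were taken by Pearson's r over 1127 Prdm12-low cells among 13431 genes. For Phox2a they were Rspo2 (0.63), Gria1 (0.59) and D430041D05Rik (0.58), and for Eya1 Fxyd7 (0.66), Caly (0.65) and Tmie (0.58). For Eya4 they were Prox2 (0.50), Brinp1 (0.49) and Tnni1 (0.49), with Prox2 being one of the subtype genes used above. Eya2 and Six4 had no close companion: the highest values were 0.33 (Ajap1), 0.29 (Islr2) and 0.25 (Pdlim3) for Eya2, and 0.23 (Synpr), 0.23 (Ttll7) and 0.22 (P2ry1) for Six4. After thinning, the first gene of each member gave 0.45 for Phox2a, 0.44 for Eya1, 0.37 for Eya4, 0.07 for Eya2 and 0.12 for Six4.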

How the data were processed

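Single vagal ganglion cells were measured on 16 plates by CEL-Seq2. The authors deposited a table of raw UMI counts with genes in rows and cells in columns, per the file headers. Alignment was with STAR to mm10, per the submitters' processing notes; versions, annotation, counting tool, use of strand and cell filters are not stated there. No further cell was removed here, and no doublet caller was run.

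The members, gene lists, classes and limits were chosen with earlier results of these data known. Levels are plain CPM of UMIs summed over the cells named. For tests, each plate gave 1 sum for each class, and edgeR 4.0.16 (R 4.3.3) was run on these sums: glmQLFit (robust) and glmQLFTest, two-sided, TMM factors, filterByExpr, plate as a block, Benjamini-Hochberg over all genes tested, threshold 0.05. Log2 differences use the TMM factors, and their SE is approximate, taken from the F statistic. Plates needed at least 5 cells of each Prdm12 class, or 3 of each subtype class. The classes compared were sorted onto the same plates, hence the block. Since ganglia were pooled, plates may share animals, and p-values measure only a spread between plates that may be technical. The edgeR fit was tried on counts simulated from the sums of the Prdm12 and Bmp3 comparisons, with a fixed dispersion and no plate effect. That simulation does not cover the other subtype comparisons or genes of low counts.

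The text names the members, Eya3, Dach1 and Hand2, up to 2 passing genes in each direction per list by size, and the 3 genes most alike each member. For the partners and the somatic sensory factors, listed genes that did not pass the filter are named too, with levels or UMIs only. Some genes fixed for naming or in the lists are not reported here, and counts over lists leave them out. Inppl1 was added after its overlap with Phox2a was seen. Some genes of the lists (Tlx1, Foxi3, Hmx3 and the muscle marker Myod1) were not analysed here. Alternatives were no filter on low counts, DESeq2 1.42.0, no replicate block, each run alone, plates 2 and 3 left out, wells under 500 CPM of glial markers, wells above 2 times the plate's median UMIs left out, thinning to 17000 UMIs per cell, other Prdm12 limits (1 limit at 50 CPM; 0 UMIs against 200 CPM) and subtype limits (0.1 or 0.5 of the top mean), and cells high in 1 subtype gene.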

Additional observations from a re-analysis of the deposited data

Results flagged for a closer look

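Among 10 groups of 4 to 10 plates, 3 held a plate that stood apart from the others. The groups were formed by the members in Vip-high and Bmp3-high cells of the classes without shared cells. For normal values the rule flags about 1 in 20 groups. These levels hold many zeros and the groups share cells, so that rate need not apply here. Phox2a was at 24.6 CPM in Vip-high cells of plate 8, while the other 8 plates lay between 0 and 8.41 CPM. Phox2a was at 95.0 CPM in Bmp3-high cells of plate 6, where the other 5 plates lay between 0 and 18.4 CPM. Eya2 was at 31.0 CPM in Bmp3-high cells of plate 7, where the other 5 plates lay between 0 and 3.22 CPM. Each of these plates holds few cells of its class, and the plates differ between the genes. In each case 1 cell of the whole class had 50 CPM or more of the gene. For Phox2a in Bmp3-high cells that cell had 209.6 CPM and lay on plate 6, since a summed level of 95.0 CPM needs a cell at least as high. For the other cases, whether that cell lay on the plate that stood apart was not tested.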

How the results depend on the processing

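Of 428 values of members under alternative settings, 397 kept their side of the threshold and, where called, their direction, 23 lost the call, 7 gained one and 1 called value turned. The one that turned was Eya1 in Bmp3-high cells, at -0.09 with the looser Bmp3 limit. In Prdm12-low against Prdm12-high cells, the call of Six4 was lost under thinning (-0.13), and the other 36 values of members in that comparison kept direction and call; Eya4 had a value in 4 of those alternatives, 2 of which applied no filter on low counts. Leaving out the plate block ("no replicate block") changed no member's call or direction, and it lowered the number of genes called from 7052 to 6451 in the Prdm12 comparison.

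Counts of genes called moved more. Thinned to 17000 UMIs per cell, they were 3959 for Prdm12, 2377 for Prox2, 1820 for P2ry1, 887 for Vip, 111 for Sst, 1168 for Cckbr, 1839 for Eln and 425 for Bmp3, with fewer genes tested. With glia-rich wells left out they were 3317 for Prox2, 2060 for P2ry1, 1420 for Vip, 1601 for Cckbr, 2587 for Eln and 395 for Bmp3. Run 1 alone gave 2772 for Prox2, 2143 for P2ry1, 396 for Vip, 1486 for Cckbr and 432 for Bmp3, and run 2 alone 1735 for Cckbr, 2434 for Eln and 252 for Bmp3, each with fewer plates. The strict subtype limit gave 3337 for Prox2 and 1670 for Cckbr. For Bmp3, 558 genes were called without plates 2 and 3 and 346 with cells high in 1 subtype gene. For Sst, where 584 genes were called on 2 plates, DESeq2 called 169, the fit with no replicate block 306, the looser limit 1437 and the fit over 14 plates 2219. Where no cause is named, the cause was not tested. For Sst, run 2 alone, glia-poor wells, the strict limit and cells high in 1 subtype gene left fewer than 2 plates and gave no value, and run 1 alone and leaving out plates 2 and 3 left the same 2 plates as the main result.

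Depth limits Eya2 and Eya4 most: they had 399 and 484 UMIs in all cells, and Eya2 passed the filter on low counts in 4 of 8 comparisons. Shares of cells with a UMI fell with thinning for all 5 members, in Prdm12-low cells from 51.2% to 32.2% for Phox2a and from 75.9% to 30.5% for Six4.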
